A study of Mus musculus with 3 samples.

Results

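Gene expression was compared between thymocytes that carried 1 functional PLZF allele (PLZF+/lu) and thymocytes that carried none (PLZFlu/lu), to find the genes that 1 allele was enough to hold up or down. The luxoid (lu) allele is a point mutation of the PLZF gene that abolishes PLZF protein and was backcrossed onto C57BL/6. Of the 3 Affymetrix Mouse Gene ST arrays of the series, 1 for each of PLZF+/+, PLZF+/lu and PLZFlu/lu, 2 enter this comparison, and the PLZF+/+ array is given beside them. All 3 samples were γδNKT cells from the thymi of female mice 3 to 4 weeks old on the C57BL/6 background. By the study's methods, all 3 genotypes also shared a Rag1-/- background and the transgenic Vγ1Vδ6.4 T cell receptor, so the cells bear 1 receptor, and the cells were CD4+CD8α- thymocytes sorted in 2 rounds. By earlier work the study cites, most but not all cells in that gate express PLZF, and the labels do not say whether animals were pooled. All 24800 probe sets were compared, and genes were named only from the 21065 probe sets with exactly 1 annotated symbol, which measured 19518 genes. A gene is described below when the probe set with its highest mean log2 value differed by more than 2-fold between the arrays, which held for 24 genes. With 1 array per genotype there is no replicate check, no test was run, and every fold is a description of these arrays.

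PLZF, encoded by Zbtb16, is a transcription factor of the BTB zinc finger family. It directs the development of innate-like T cells, such as NKT cells and γδNKT cells, which acquire memory features in the thymus and release cytokines quickly. Regulators known to act in such cells include the Id proteins, which block E protein transcription factors, and RORα, a nuclear receptor of innate-like lymphocytes.

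The values are linear intensities, and the array medians were 160.0 for PLZF+/+, 161.8 for PLZF+/lu and 159.7 for PLZFlu/lu. Values below 108, the 95th percentile of 1033 olfactory receptor probe sets, are called below background here, and 0 of those probe sets differed by more than 2-fold. Identical values on the PLZF+/lu and PLZFlu/lu arrays were found for 53.8% of probe sets, taking a difference within 1e-06 on the log2 scale as equal. The T cell markers Cd3e, Cd4 and Thy1 were bright on every array, with 11334, 6208 and 6989 in PLZF+/lu. The summed intensity of the 8 T cell markers other than Zbtb16 was 51857 in PLZF+/+, and 53210 and 55018 with 1 and no intact allele. The gate selects against CD8α protein, and RNA of the CD8 genes was not at background. Cd8b1, which the study lists among genes lowered when PLZF is present, was at 1290, 2263 and 2958 in the same order. Lyz2, Csf1r and Adgre1 of myeloid cells, Ncr1 and Klrb1c of NK cells, Cd79a and Ms4a1 of B cells, Epcam and Krt5 of epithelium and Alas2 of erythroid cells lay below background on all 3 arrays. On at least 1 array, 3 of 5 B cell, 3 of 9 myeloid and dendritic, 4 of 8 stroma, 2 of 4 erythroid and 1 of 5 NK markers were above background. The brightest of these were Cd79b, a B cell receptor component, at 1440 in PLZF+/lu and Pecam1, found on endothelium and on some leukocytes, at 2643. Of the 31 measured markers of B cells, myeloid cells, stroma, erythroid cells and NK cells, 0 differed by more than 2-fold between PLZF+/lu and PLZFlu/lu. Only 0.123% of all measured genes did, so this count does not show that the sorts were equally pure. In sorted bulk samples such as these, fewer cells of a type and less RNA per cell cannot be told apart, which applies to every difference below.

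Few genes separated the PLZF+/lu array from the PLZFlu/lu array. Past 2-fold were 79 probe sets (0.319% of all), with 30 higher (0.121%) and 49 lower (0.198%) when 1 allele was present. Of these, 21 were below background on both arrays, and 31 had exactly 1 annotated gene, with 16 higher and 15 lower. Counted by gene, 24 of 19518 were past 2-fold (0.123%), 15 higher (0.0769%) and 9 lower (0.0461%) with 1 PLZF allele. Just inside the limit was Robo1 at 2.003-fold and just outside it Tnfaip3 at 1.97-fold among the genes higher in PLZF+/lu. Among the lower genes, Zfp975 was just inside at 2.02-fold and Cish just outside at 1.89-fold. Over all measured genes, 24.6% were higher in PLZF+/lu, 19.7% lower and 55.7% equal, with a median log2 difference of 0.

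**Figure D1:**
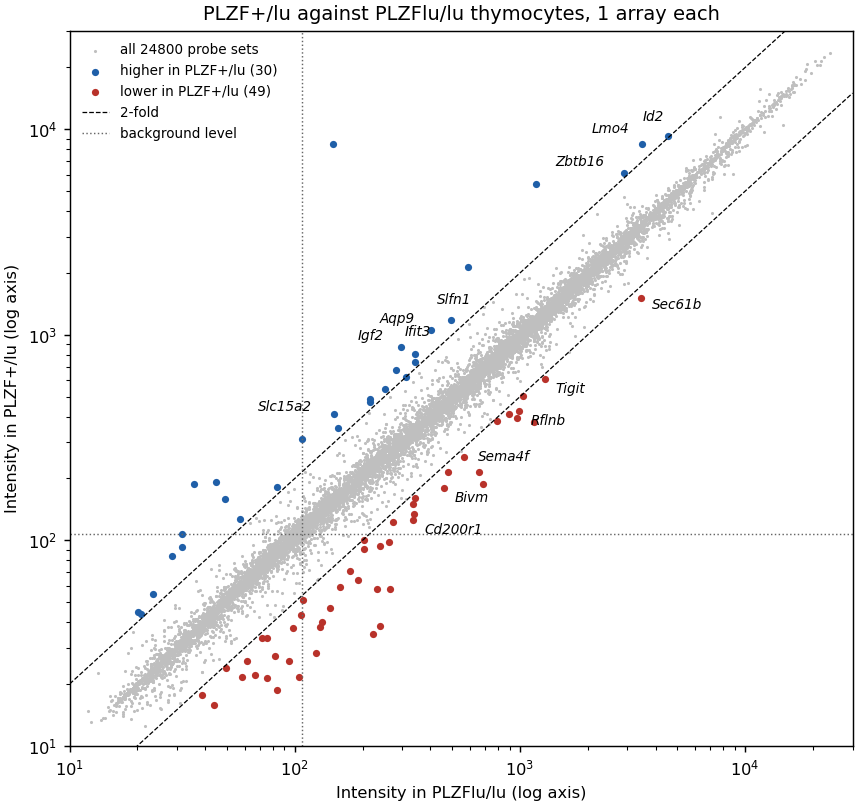
Intensity of each of 24800 probe sets in PLZF+/lu (vertical, log axis) against PLZFlu/lu (horizontal, log axis), 1 array each. Coloured points are the 30 probe sets higher and the 49 lower by more than 2-fold (dashed lines), many of them under the dotted background level of 108, while Lmo4, Zbtb16 and Id2 stand out at the bright end.

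The 24 genes were sorted by where the PLZF+/+ array lay. A gene was called held by 1 allele when PLZF+/+ was within 1.5-fold of PLZF+/lu, graded when PLZF+/+ lay over 1.5-fold further from PLZFlu/lu, and PLZF+/lu was called outermost when PLZF+/+ lay over 1.5-fold back towards or past PLZFlu/lu. By this rule 13 genes were held, 7 of them higher and 6 lower than in PLZFlu/lu, 6 were graded and 5 had PLZF+/lu outermost. The PLZF+/lu array enters both distances, and PLZF+/+ was within 1.5-fold of PLZF+/lu for 99.2% of all measured genes, so the classes describe the arrays and are no measure of dose. The study reports that PLZF+/lu cells were intermediate at most genes changed without PLZF, as part of its evidence for haploinsufficiency. A gene called held here can be intermediate in that sense, as Id2 and Zbtb16 were. Among all 79 probe sets the rule gave 37 held, 15 graded and 27 outermost.

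The genes held up included 3 bright transcription regulators. Zbtb16 itself was at 8796 in PLZF+/+ cells, 6143 in PLZF+/lu cells and 2890 in PLZFlu/lu, a log2 difference of 1.09 between the latter arrays. The luxoid transcript can still hybridise, so this value does not fully check the labels. Lmo4, a LIM-only adaptor that bridges transcription factors, was at 10656, 8497 and 3485, a log2 difference of 1.29. Id2, which inhibits E proteins by pairing with them, was at 13326, 9322 and 4554, a log2 difference of 1.03. For all 3 regulators the PLZF+/lu value lay nearer to PLZF+/+ than to PLZFlu/lu, as the rule for held genes requires. PLZF+/+ was still 1.43-fold above PLZF+/lu for Zbtb16 and for Id2, not far inside the limit of 1.5-fold. By the narrower limit tried among the alternatives, all 3 regulators would be graded, so their class depends on the limit.

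Transporter genes were also among the genes held up. Slc15a2, which encodes the peptide transporter PEPT2, was at 584 in PLZF+/+ cells, 410 in PLZF+/lu cells and 150 in PLZFlu/lu, and its log2 difference of 1.45 was the largest of the held class. Slc15a1, which encodes the related transporter PEPT1, was at 3531, 3890 and 2188, short of 2-fold with a log2 difference of 0.83. Aqp9, a channel for water and glycerol, was at 1129, 1054 and 402, a log2 difference of 1.39. PLZF+/lu and PLZF+/+ thus stood close together for Slc15a1 and Aqp9, above PLZFlu/lu. Oasl2, an interferon-stimulated member of the oligoadenylate synthetase family, was at 630, 736 and 343, a log2 difference of 1.10. Usp44, a deubiquitinating enzyme, was at 162, 127 and 57.3, and since PLZFlu/lu lay below background, PLZF+/lu was at least 1.17-fold higher.

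Both immune receptor genes held down are inhibitory receptors. Cd200r1, the receptor for CD200, was at 115 in PLZF+/+ cells, 126 in PLZF+/lu cells and 336 in PLZFlu/lu, a log2 difference of -1.41. Tigit, which binds nectin-family ligands, was at 612 in both PLZF+/+ and PLZF+/lu and at 1291 in PLZFlu/lu, a log2 difference of -1.08. PLZF+/lu was thus close to background for Cd200r1 but well above it for Tigit. Of the 39 other measured members of the list of costimulatory and inhibitory receptors, 0 were past 2-fold, and the list's median log2 difference was 0. Only 0.123% of all measured genes were past 2-fold, so the count of 0 says little.

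The other genes held down have varied roles. Bivm was at 158 in PLZF+/+ cells, 180 in PLZF+/lu cells and 460 in PLZFlu/lu, a log2 difference of -1.35. Rflnb, which encodes a filamin-binding protein, was at 324, 427 and 994, a log2 difference of -1.22. Sema4f, a semaphorin, was at 185, 254 and 563, a log2 difference of -1.15. Acadl, the long-chain acyl-CoA dehydrogenase of fatty acid oxidation, was at 151, 122 and 274, a log2 difference of -1.16. By the rule for this class, PLZFlu/lu was the highest array for all 6 genes held down, by more than 2-fold over PLZF+/lu.

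Promoters of 4 held genes are shown because Id2 and Slc15a2 were higher and Sema4f and Tigit lower with 1 allele, and because each holds the E box letters CANNTG, the motif bound by the E proteins that Id2 inhibits. Each is the 250 bases before the gene start in RefSeq on GRCm38.p6, 5′ to 3′ on the gene's strand, with E boxes in capitals. Id2 is at chr12:25096093-25096342 on the minus strand, Slc15a2 at chr16:36784963-36785212 on the minus strand, Sema4f at chr6:82939770-82940019 on the minus strand and Tigit at chr16:43664185-43664434 on the minus strand.
Id2: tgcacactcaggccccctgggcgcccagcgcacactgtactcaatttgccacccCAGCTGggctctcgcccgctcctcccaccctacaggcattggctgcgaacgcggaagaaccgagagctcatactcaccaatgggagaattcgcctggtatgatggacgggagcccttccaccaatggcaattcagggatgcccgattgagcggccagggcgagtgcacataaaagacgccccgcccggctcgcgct
Slc15a2: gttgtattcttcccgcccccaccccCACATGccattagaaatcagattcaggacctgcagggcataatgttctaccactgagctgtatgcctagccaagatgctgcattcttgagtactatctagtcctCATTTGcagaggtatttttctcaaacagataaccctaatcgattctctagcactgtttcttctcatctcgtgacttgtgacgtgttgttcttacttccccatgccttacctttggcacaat
Sema4f: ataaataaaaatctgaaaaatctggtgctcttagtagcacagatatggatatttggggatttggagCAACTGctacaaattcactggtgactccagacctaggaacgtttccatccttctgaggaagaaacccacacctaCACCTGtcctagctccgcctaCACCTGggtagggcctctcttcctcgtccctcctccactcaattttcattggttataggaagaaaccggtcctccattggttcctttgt
Tigit: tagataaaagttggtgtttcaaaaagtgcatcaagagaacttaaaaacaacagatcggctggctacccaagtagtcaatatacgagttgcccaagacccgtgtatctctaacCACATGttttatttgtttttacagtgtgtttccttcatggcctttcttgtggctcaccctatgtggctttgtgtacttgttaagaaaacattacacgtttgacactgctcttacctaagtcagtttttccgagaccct
In the longer window of 300 bases, which runs on to 50 bases past the start, CANNTG was found on either strand at 9 of the 10 held genes with a listed promoter, 90.0%, against 71.5% of the 15540 measured genes with one. The interferon response letters, GAAA repeated after any 2 bases, were found at 0 of these 10. A match in these letters is a description of the sequence, and E boxes are present at most promoters.

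At the 6 graded genes PLZF+/lu lay between the other arrays, as the rule for that class requires. Igf2, an insulin-like growth factor, was at 1703 in PLZF+/+ cells, 870 in PLZF+/lu cells and 297 in PLZFlu/lu, a log2 difference of 1.55 for PLZF+/lu and 2.52 for PLZF+/+ against PLZFlu/lu. Ccr2, the receptor for the chemokine CCL2, was at 1243, 487 and 216, with log2 differences of 1.17 and 2.52. Robo1, a receptor for Slit guidance proteins, was at 1549, 621 and 310, with log2 differences of 1.002 and 2.32. For Ccr2 and Robo1, therefore, PLZF+/lu covered less of the log2 distance from PLZFlu/lu than remained to PLZF+/+. Rora, which encodes RORα, was at 1498, 672 and 281, with log2 differences of 1.26 and 2.41. Gsto1, a glutathione transferase, was at 950, 547 and 253, with log2 differences of 1.12 and 1.91. Sec61b, part of the translocon that takes new proteins into the endoplasmic reticulum, was the only graded gene that was lower, at 827, 1515 and 3439. Its other probe sets gave 242 on all 3 arrays and values below background, so its difference rests on 1 probe set. The number of that probe set falls among those of another chromosome than the gene's. The probe set at 242, numbered among those of the gene's own chromosome, showed no difference, so the Sec61b value may not be that of the gene. Both comparisons in each pair of log2 differences share the PLZFlu/lu array.

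The PLZF+/lu array was outermost at 5 genes. Ifit3, an interferon-induced antiviral gene, was at 324 in PLZF+/+ cells, 804 in PLZF+/lu cells and 343 in PLZFlu/lu, a log2 difference of 1.23 against PLZFlu/lu. Oas2, an oligoadenylate synthetase, was at 303, 470 and 215, a log2 difference of 1.13. Slfn1, a schlafen gene associated with T cell quiescence, was at 658, 1174 and 496, a log2 difference of 1.24. By the rule for this class, these 3 genes were higher in PLZF+/lu than on either other array. Their difference from PLZFlu/lu thus did not follow the number of PLZF alleles. H2ac4, a histone H2A gene, was at 156, 59.2 and 158, and PLZF+/lu, below background, was at least 1.47-fold lower than PLZFlu/lu. Zfp975, a zinc finger gene, was at 206, 100 and 203, at least 1.88-fold lower against the background level. Usp44, H2ac4 and Zfp975 are thus past 2-fold only by their values as deposited.

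**Figure D2:**
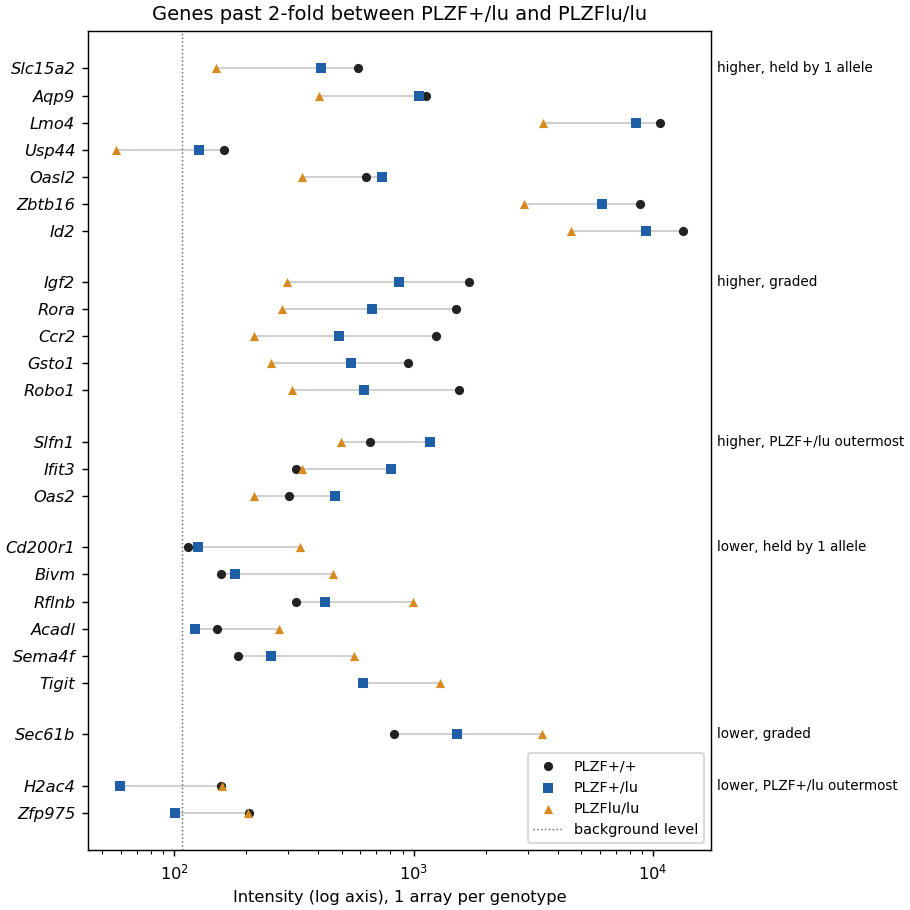
Intensities (log axis) of the 24 genes past 2-fold between PLZF+/lu (squares) and PLZFlu/lu (triangles), with PLZF+/+ (circles), 1 array per genotype and hence without error bars. By the sorting rule, squares sit beside circles for the 13 held genes and between the other symbols for the 6 graded genes. They sit beyond both at the 5 genes where PLZF+/lu is outermost.

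Past 1.5-fold there were 104 genes (0.533%), of which 94 were above background, 54 higher and 40 lower in PLZF+/lu. Of these 94, PLZF+/+ was within 1.5-fold of PLZF+/lu at 57, 20 were graded and 17 had PLZF+/lu outermost. Among those between 1.5-fold and 2-fold, Itgae, the integrin subunit CD103, was at 1811 in PLZF+/+ cells, 1859 in PLZF+/lu cells and 1044 in PLZFlu/lu. Tnfaip3, an inhibitor of NF-κB signalling, was at 1049, 1369 and 695. Cish, which restrains cytokine signals, was at 389 in both PLZF+/+ and PLZF+/lu and at 736 in PLZFlu/lu. Cd24a, a marker of immature thymocytes, was at 213, 207 and 361. At Itgae, Cish and Cd24a the arrays with at least 1 allele were nearly level. The focal adhesion gene Tns4 differed from these, since 1 allele gave 418 where PLZF+/+ had 1176 and PLZFlu/lu 214.

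Most interferon-stimulated genes were higher in PLZF+/lu. Of 32 measured members, 28 were higher, 1 lower and 3 equal against PLZFlu/lu, with a median log2 difference of 0.29. All measured genes had a median of 0, with 24.6% higher and 19.7% lower. Past 2-fold were 3, Ifit3, Oas2 and Oasl2, and past 1.5-fold were 10, against 0.123% and 0.533% of all measured genes. PLZF+/lu was the highest of the 3 arrays at 23 of the 32 genes, as it was at 13.0% of all measured genes. The median of PLZF+/+ against PLZFlu/lu was 0.08. Usp18, which damps interferon receptor signalling, was at 760 in PLZF+/+ cells, 1260 in PLZF+/lu cells and 686 in PLZFlu/lu. Ifit1, whose protein binds viral RNA, was at 666, 971 and 597. The antiviral GTPase gene Mx1 was at 106, 177 and 98.9, around the background level. At Usp18, Ifit1 and Mx1 the arrays with 2 alleles and with none were close to each other, below PLZF+/lu. Oas3, an oligoadenylate synthetase, was instead highest in PLZF+/+, at 862, 649 and 357. Ifi203 was lower in PLZF+/lu than in PLZFlu/lu, at 4149 against 5406, and lowest in PLZF+/+ at 3044. Cxcl10, a chemokine gene induced by interferon, was at 124 in PLZF+/lu and 100 on both other arrays, at the background level. The 9 measured myeloid and dendritic markers had a median log2 difference of 0 between the same arrays, and 6 of them were below background on all 3.

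Promoters of 3 interferon-stimulated genes are shown as examples of the interferon response letters, GAAA repeated after any 2 bases. They are in capitals and start with TTTC where they lie on the other strand. Each is the 250 bases before the RefSeq start on GRCm38.p6, 5′ to 3′ on the gene's strand. Ifit3 is at chr19:34583279-34583528 on the plus strand, Ifit1 at chr19:34640639-34640888 on the plus strand and Oas3 at chr5:120777660-120777909 on the minus strand.
Ifit3: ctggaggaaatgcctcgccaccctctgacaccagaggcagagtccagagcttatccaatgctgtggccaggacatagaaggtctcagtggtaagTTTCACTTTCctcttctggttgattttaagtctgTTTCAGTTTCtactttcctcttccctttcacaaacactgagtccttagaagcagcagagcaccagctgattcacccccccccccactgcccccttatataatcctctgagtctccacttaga
Ifit1: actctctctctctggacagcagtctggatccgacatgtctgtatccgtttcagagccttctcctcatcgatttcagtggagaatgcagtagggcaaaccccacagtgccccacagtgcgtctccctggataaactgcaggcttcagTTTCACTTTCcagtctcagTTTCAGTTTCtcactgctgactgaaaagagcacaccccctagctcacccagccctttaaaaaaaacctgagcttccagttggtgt
Oas3: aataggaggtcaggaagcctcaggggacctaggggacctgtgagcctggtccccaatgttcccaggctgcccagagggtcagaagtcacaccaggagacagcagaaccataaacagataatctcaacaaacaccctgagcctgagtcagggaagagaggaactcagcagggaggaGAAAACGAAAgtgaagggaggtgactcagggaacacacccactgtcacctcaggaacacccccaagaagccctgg
Within the windows of 300 bases the letters were found on either strand at 14 of the 23 interferon-stimulated genes with a listed promoter, 60.9%, against 3.88% of all 15540. Oasl2, the interferon-stimulated gene of the held class, had none in its window, while Ifit3 and Oas3 did. A listed promoter was missing for 9 of the 32 genes.

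Most proliferation genes had their lowest value in PLZF+/lu. Of 40 measured members, 27 were lower, 2 higher and 11 equal against PLZFlu/lu, with a median log2 difference of -0.08, and PLZF+/lu was the lowest of the 3 arrays at 26. Over all measured genes 19.7% were lower against PLZFlu/lu, and PLZF+/lu was the lowest array at 11.4%. None was past 2-fold, and 2, Mki67 and Bub1, were past 1.5-fold by their values as deposited. Of all measured genes 0.123% and 0.533% were past these limits. Mki67, which encodes the cell cycle marker Ki-67, was at 605 in PLZF+/+ cells, 402 in PLZF+/lu cells and 676 in PLZFlu/lu, a log2 difference of -0.75. Bub1, a spindle checkpoint kinase, was at 146, 87.0 and 146, and since PLZF+/lu was below background it was at least 1.36-fold lower. Ccna2, which encodes cyclin A2, was at 387 on both other arrays and at 270 in PLZF+/lu. Top2a, a topoisomerase of dividing cells, was at 479, 348 and 476. For these genes the PLZF+/+ and PLZFlu/lu arrays were nearly level, and over the list the median log2 difference between them was 0. The median of PLZF+/+ against PLZF+/lu was 0.23.

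Promoters of Mki67 and Ncapg, a condensin subunit of mitotic chromosomes, are shown for the letters TTTGAA, the CHR element found before many cell cycle genes, in capitals. They are again the 250 bases before the RefSeq start on GRCm38.p6. Mki67 is at chr7:135716380-135716629 on the minus strand and Ncapg at chr5:45669675-45669924 on the plus strand.
Mki67: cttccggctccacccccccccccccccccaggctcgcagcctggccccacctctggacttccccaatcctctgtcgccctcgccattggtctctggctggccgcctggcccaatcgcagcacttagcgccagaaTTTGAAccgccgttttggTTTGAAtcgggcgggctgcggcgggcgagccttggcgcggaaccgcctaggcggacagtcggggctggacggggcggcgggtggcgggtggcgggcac
Ncapg: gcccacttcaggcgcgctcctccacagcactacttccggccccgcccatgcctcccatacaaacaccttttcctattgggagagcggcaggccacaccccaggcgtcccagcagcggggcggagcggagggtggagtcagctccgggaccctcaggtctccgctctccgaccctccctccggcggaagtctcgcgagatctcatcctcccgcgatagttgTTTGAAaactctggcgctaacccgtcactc
TTTGAA was found on either strand at 17 of the 34 proliferation genes with a listed promoter, 50%, against 17.3% of all measured genes with one. CCAAT was found at 26 of the 34, 76.5%, against 41.7%.

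**Figure D3:**
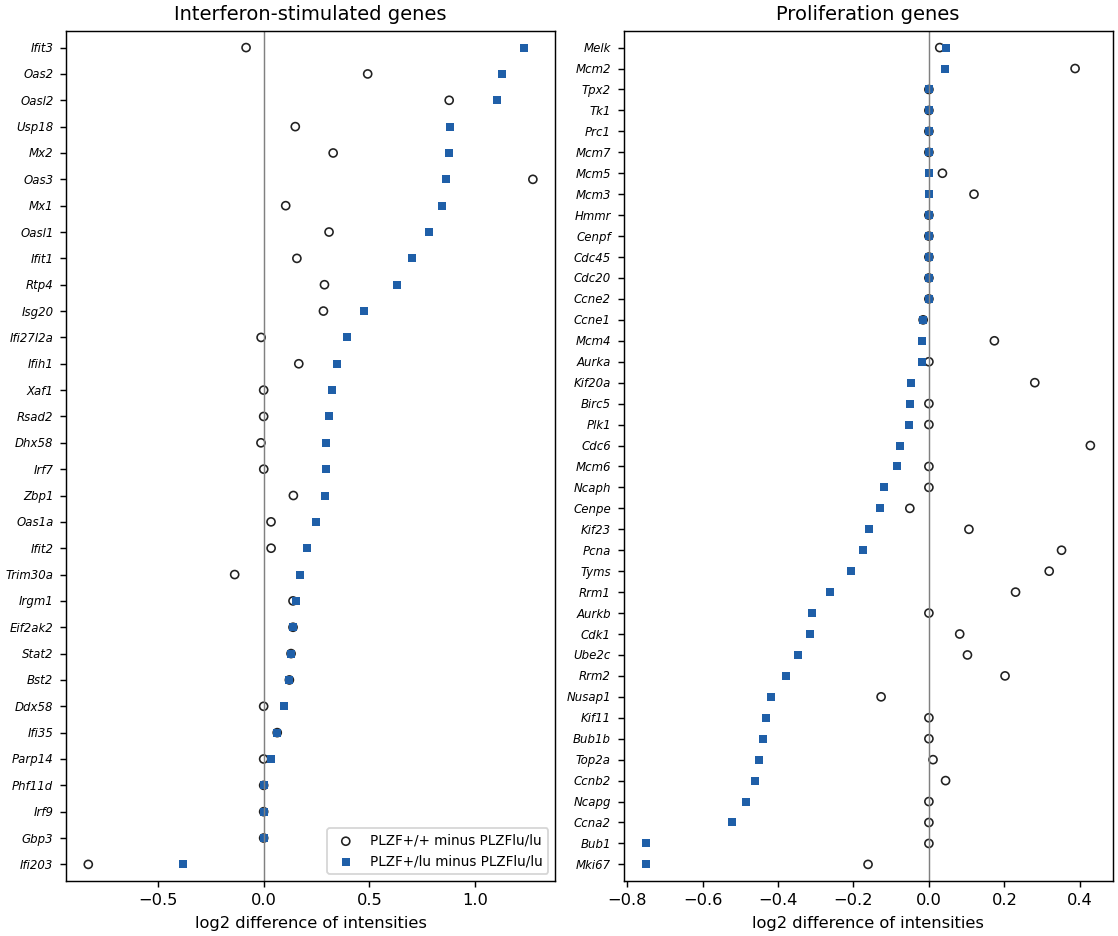
Log2 difference from PLZFlu/lu of each interferon-stimulated gene (left, 32) and proliferation gene (right, 40), for PLZF+/lu (squares) and PLZF+/+ (open circles), 1 array per genotype. Most squares lie to the right of 0 on the left panel, with a median of 0.29, and to the left of 0 or on it on the right panel, with a median of -0.08, while most circles lie nearer to 0.

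Transcription regulators of lymphocytes held 4 of the 24 genes but showed no common direction. Of 70 measured, 28 were higher in PLZF+/lu, 18 lower and 24 equal, with a median log2 difference of 0. Among all measured genes 24.6% were higher, 19.7% lower and 0.123% past 2-fold. The 4 regulators past 2-fold were Lmo4, Rora, Zbtb16 and Id2, and Zbtb16 is the gene whose alleles define the genotypes. Id3, another inhibitor of E proteins, was at 2052 in PLZF+/+ cells, 1628 in PLZF+/lu cells and 2461 in PLZFlu/lu, opposite in sign to Id2. Bach2, a repressor that restrains effector differentiation, was at 449, 801 and 1231. Maf, which drives IL-4 transcription, was at 874, 260 and 164, so that 1 allele gave a log2 difference of 0.67 where PLZF+/+ gave 2.41. Zbtb7b, which encodes ThPOK, was at 335, 179 and 125, with log2 differences of 0.52 and 1.42. Maf and Zbtb7b in PLZF+/lu thus stood nearer to PLZFlu/lu on the log2 scale.

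Cytokine receptors were divided in direction. Of 59 measured members of that list, which includes signalling components, 18 were higher and 27 lower in PLZF+/lu. The median log2 difference was 0, and 0 were past 2-fold. Among all measured genes 24.6% were higher, 19.7% lower and 0.123% past 2-fold, so the count of 0 says little. Il12rb1, a subunit of the IL-12 receptor, was at 1917 in PLZF+/+ cells, 1451 in PLZF+/lu cells and 761 in PLZFlu/lu, a log2 difference of 0.93. Ifngr1, the IFNγ receptor chain that binds the cytokine, was at 1872, 3906 and 7152, a log2 difference of -0.87. Il4ra, the IL-4 receptor chain, was at 1430, 1759 and 2891, a log2 difference of -0.72. Il6st, the shared receptor chain gp130, was at 1356, 1785 and 3008, a log2 difference of -0.75. PLZF+/lu lay between the other arrays for these 4 genes, nearer to PLZF+/+ for Il12rb1, Il4ra and Il6st and close to the middle on the log2 scale for Ifngr1.

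The 24 measured genes that the study names for these arrays were chosen on the same samples, so their direction is no independent evidence. Of these, 17 were higher and 5 lower in PLZF+/lu, 4 were past 2-fold, and PLZF+/lu lay between the other arrays at 21. The median log2 difference was 0.36 for PLZF+/lu and 1.11 for PLZF+/+ against the shared PLZFlu/lu array. Besides those given above, Cd40lg, the CD40 ligand of T cell help, was at 2313 in PLZF+/+ cells, 1587 in PLZF+/lu cells and 960 in PLZFlu/lu. Icos, a costimulatory receptor, was at 2733, 1758 and 1198. Il18r1, a chain of the IL-18 receptor, was at 667, 333 and 228. All 3 had intermediate values in PLZF+/lu without reaching 2-fold over PLZFlu/lu. The neutrophil chemokine receptor gene Cxcr2 was at 415, 291 and 185, and Irak3, an inhibitor of IL-1 receptor family signalling, at 1254, 799 and 605. Stat4, the transducer of IL-12 signals, was at 787, 1373 and 1933. Ccr10, a skin and mucosal homing receptor, was at 1509 in PLZF+/+ but at 524 in PLZF+/lu and 489 in PLZFlu/lu. With a log2 difference of 0.10, the PLZF+/lu array lay near PLZFlu/lu for Ccr10. Il4, the cytokine gene, was equal at 170 in PLZF+/lu and PLZFlu/lu and at 224 in PLZF+/+, all not far above the background level of 108. The homing receptor gene Cxcr6 was at 3827, 3157 and 2790, and of the cytokine genes Il13 was at 303, 271 and 216 and Tnf at 170, 124 and 101. Ifng and Il10 lay below background on all 3 arrays.

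Most genes of naive T cells, of CD4+CD8+ thymocytes and of T cell receptor signalling were lower in PLZF+/lu, mostly by small amounts. Over all measured genes, 19.7% were lower in PLZF+/lu and 24.6% higher, and 0.123% were past 2-fold. Of 24 measured genes of naive T cells and thymic exit, 17 were lower and 5 higher in PLZF+/lu, with a median log2 difference of -0.10 for PLZF+/lu and -0.09 for PLZF+/+, and Slfn1 alone was past 2-fold. S1pr1, the receptor for exit from the thymus, was at 5243 in PLZF+/+ cells, 6722 in PLZF+/lu cells and 8144 in PLZFlu/lu. Of 24 genes of CD4+CD8+ thymocytes, 16 were lower and 3 higher, with a median of -0.04 and 0 past 2-fold. The largest differences there were at Cd24a, given above, and at Tdrd5, a tudor domain gene, which was at 350, 436 and 303. Of 38 genes of T cell receptor signalling, 23 were lower and 7 higher, with a median of -0.04 and 0 past 2-fold. In that list Ubash3a, a negative regulator of receptor signals, was at 1404, 2027 and 2712. Tespa1, which takes part in thymocyte selection signals, was at 3316, 3711 and 4544. Of 25 genes of CD4-CD8- thymocytes, 7 were higher and 4 lower, and 0 were past 2-fold. Il2ra, the IL-2 receptor α chain, was at 148 in PLZF+/lu and 183 on both other arrays, and Cd44, a hyaluronan receptor, at 247 in PLZF+/lu against 204 in PLZFlu/lu. The CD8 genes, measured in the same sort, summed to 1659 in PLZF+/+, and to 2782 and 3559 with 1 and no intact allele. Their part in these lists was not tested.

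Of the lists of homing, guidance and adhesion genes, chemokine receptors and guidance genes held the members past 2-fold. Of 27 chemokine and sphingosine phosphate receptors, 9 were higher and 6 lower, and Ccr2 alone was past 2-fold. Of 39 axon guidance genes, 12 were higher and 7 lower, with Robo1 higher and Sema4f lower past 2-fold. Of 33 integrin and adhesion genes, 10 were higher and 12 lower, 0 were past 2-fold, and Tns4 and Itgae had the largest log2 differences at 0.96 and 0.83. The median log2 difference of each of these lists was 0. Among all measured genes 24.6% were higher, 19.7% lower and 0.123% past 2-fold, so a count of 0 in a list says little. Among 31 NK receptor and cytotoxicity genes 0 were past 2-fold, and the largest differences above background were at Klrb1f, a C-type lectin receptor, with 260, 175 and 125, and Fcgr3, an Fc receptor, with 145, 130 and 167. Among 26 cytokine and chemokine genes, 0 were past 2-fold.

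The lists of cholesterol and fatty acid synthesis, glycolysis and lactate, BCL2 family and death receptor, and immediate early and heat shock genes had no member past 2-fold. Only 0.123% of all measured genes were past 2-fold, so this says little, and 24.6% were higher and 19.7% lower. Of 28 genes of cholesterol and fatty acid synthesis, 15 were lower and 6 higher in PLZF+/lu, with a median log2 difference of -0.03. There Cyp51, an enzyme of sterol synthesis, was at 155 in PLZF+/lu and 193 on both other arrays, and Elovl5, a fatty acid elongase, at 3423 in PLZF+/lu and 4123 in PLZFlu/lu. Of 18 genes of glycolysis and lactate, 11 were higher and 2 lower, with a median of 0.02. There the lactate transporter gene Slc16a1 was at 1056 in PLZF+/lu and 869 in PLZFlu/lu, and Aldoa, an aldolase, at 3995 and 3371. Of 22 BCL2 family and death receptor genes, 6 were higher and 6 lower. Bmf, which promotes cell death, was at 351, 208 and 300, and Bcl2, which opposes it, at 5403, 6140 and 7241. Of 26 immediate early and heat shock genes, known to react to handling of cells, 15 were higher and 6 lower, with a median of 0.02 for PLZF+/lu and 0.09 for PLZF+/+. Among them Dusp1, a phosphatase of MAP kinases, was at 4451, 4693 and 2898, and the AP-1 gene Fos at 340, 369 and 254.

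**Figure D4:**
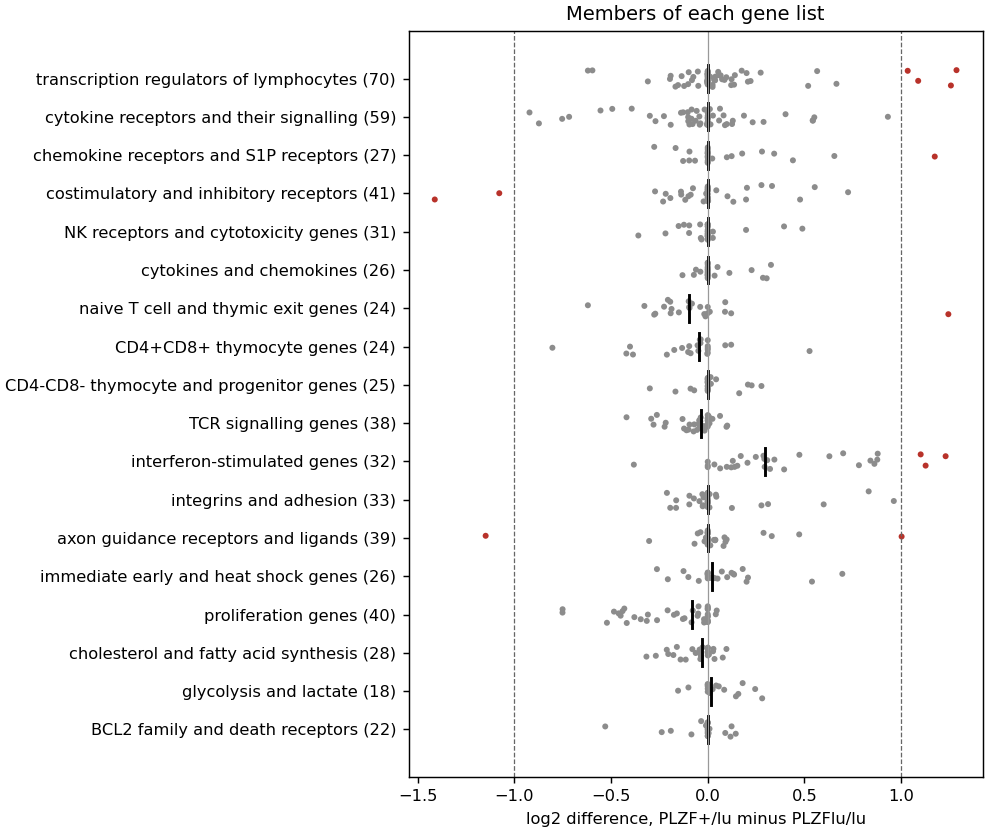
Log2 difference of intensities, PLZF+/lu minus PLZFlu/lu, for each member (points) of 18 gene lists with the number measured in brackets, and the list's median as a black bar. Red points are past 2-fold (dashed lines at -1.0 and 1.0), and the interferon-stimulated genes have the highest median, 0.29.

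Zbtb16, whose alleles define the genotypes, lies on chromosome 9. Counting Zbtb16 itself, 4 of the 24 genes past 2-fold lie there, 16.7% against 5.86% of 19498 placed genes. The others are Rora, Aqp9 and Ccr2, and the share is partly set in advance because Zbtb16 is counted. All 4 were higher in PLZF+/lu. Between Zbtb16 and the others lie 222 measured genes for Rora, 237 for Aqp9 and 697 for Ccr2 in the order of the RefSeq table. Next to Zbtb16, 0 of the 40 nearest measured genes, 20 on each side, were past 1.5-fold. Only 0.533% of all measured genes were past 1.5-fold, so a count of 0 among 40 says little. Their log2 differences ran from -0.21 to 0.31, with 7 higher, 9 lower and 24 equal, and 23 of them were above background. The length of flanking sequence left around the luxoid mutation after backcrossing was not stated in the sources used here.

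Several probe sets past 2-fold belonged to genes whose brightest probe set was not past 2-fold. For the ribosomal protein gene Rpl36, 1 probe set was at 111 in PLZF+/+ cells, 193 in PLZF+/lu cells and 44.6 in PLZFlu/lu, but the brightest of its 8 was at 16714, 15259 and 14387. For Rps28, of the small ribosomal subunit, 1 probe set was at 732, 375 and 1160 and the brightest at 3854, 3597 and 4671. For Rangrf, a Ran-binding factor, 1 probe set was at 634, 189 and 682 and the brightest at 737, 950 and 1006. These genes are therefore not counted among the 24. Etv1, an ETS transcription factor gene, and Ssh2, a cofilin phosphatase gene, had log2 differences of -1.35 and -1.03 at the dimmer and -0.74 and -0.56 at the brighter. Probe set numbers follow the genome, and Rpl36, Rps28, Rangrf, Etv1 and Sec61b account for the 5 of 31 single-gene probe sets past 2-fold, 16.1%, whose number falls among those of another chromosome than their gene, against 2.95% of all 20980. Among probe sets whose annotation lists several genes or none, which are not named, the largest difference was at 1 with 6 listed genes, at 98.7, 8529 and 148, a log2 difference of 5.85. Next in number to the Igf2 probe set, 2 such probe sets were graded like it, at 6175, 2133 and 589 and at 10461, 5421 and 1183.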

How the data were processed

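RNA from sorted γδNKT thymocytes of 3 genotypes was hybridised to 1 Affymetrix array each. The authors processed the scans with GenePattern modules (ExpressionFileCreator, MultiplotPreprocess, Multiplot), removed normalization controls and deposited linear intensities for 24800 probe sets. The submitters' processing notes name the mouse build mm8. How probes were corrected for background, summarised and scaled is not given in these sources, and values shared exactly between arrays limit what small differences mean.

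Deposited intensities were compared as log2, PLZF+/lu minus PLZFlu/lu. Of the probe sets, 1187 list several genes and 2548 none. Symbols were updated through gene identifiers to RefSeq (GRCm38.p6) for 20983. For 874 genes with several probe sets, the brightest by mean log2 value was taken. Counts past a threshold use values as deposited, and a printed fold against a value below 108 was taken against 108. Genes named are those past 2-fold and above background, members of 26 lists past 2-fold or else the 2 largest differences above background, Zbtb16 and genes the study names. Others were chosen after their values were seen, among them those between 1.5-fold and 2-fold, further list members and marker genes, and probe sets that are not their gene's brightest. Members and lists were chosen with earlier results of these data known. Unnamed gene models and antigen receptor segments are not named. Positions from different builds were not mixed.

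The number of arrays limits the precision. Alternatives were quantile normalization, median centring, cyclic loess, 32 added, a floor at background, other filters, thresholds and probe set rules. Python 3.11.15 with numpy 2.4.6, pandas 2.3.3 and matplotlib 3.10.9 were used, with limma 3.58.1 in R 4.3.3 for normalization. The counting rule was tested on simulated data. The flow cytometry, the qPCR and the authors' supplementary tables were not analysed here.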

Additional observations from a re-analysis of the deposited data

How the results depend on the processing

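No difference of a gene past 2-fold changed sign under any alternative, and the overall median shifted by -0.02 at most, under median centring. The number of probe sets past 2-fold, 79 with 30 higher and 49 lower, depended on dim values and on the counting unit. With 32 added to each intensity 32 were lower and 8 of the probe sets past 2-fold were graded. With values below background raised to it, 43 were past 2-fold, 19 higher and 24 lower, with 23 held and 10 outermost. Probe sets with exactly 1 gene gave 31, 16 higher and 15 lower, and 1 probe set per gene gave 24, 15 higher and 9 lower. The balance of higher against lower calls thus turns with the filter. At 1.5-fold there were 264, 104 higher and 160 lower, and at 3-fold 23, 7 higher and 16 lower. Calling probe sets held only within a narrower limit left 21 held and 25 graded, and within 2-fold gave 57 held, 5 graded and 17 outermost. By the narrower limit the held genes Zbtb16, Id2, Lmo4, Slc15a2, Usp44, Rflnb and Sema4f would be graded, Lmo4 only just. Aqp9, Oasl2, Cd200r1, Tigit, Bivm and Acadl would stay held.

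At 1.5-fold, which 0.533% of all measured genes passed, the members counted were 7 regulators, 5 cytokine receptors, 2 chemokine receptors and 3 costimulatory and inhibitory receptors. There were 2 naive genes, 1 gene of CD4+CD8+ thymocytes, 10 interferon-stimulated genes and 3 integrin and adhesion genes. Also counted were 2 axon guidance genes, 1 immediate early gene, 2 proliferation genes, 1 T cell marker and 11 genes named by the study. Axon guidance genes past 2-fold fell to 1 under median centring and with 32 added, as Robo1 went to 0.98 and 0.93.

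Of the 24 genes, 24 stayed past 2-fold under quantile normalization and cyclic loess. With 32 added, Acadl (-0.99), Usp44 (0.83) and Zfp975 (-0.83) also fell below it, as did Usp44 (0.23), H2ac4 (-0.55) and Zfp975 (-0.91) with values raised to background. With the mean over probe sets Sec61b came to -0.55 and Etv1 to -1.04. No array could be left out, since each genotype has 1. No paired analysis was possible because each genotype has 1 array. The arrays give no replicate spread, and values near background have no reliable order.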
